A study of Mus musculus with 4 samples.

Results

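The genes studied here are the fibroblast growth factor (FGF) ligands of the mouse, their receptors and the proteins that work with them. Members were chosen by gene symbol from a fixed list, and all 33 were found among the 24771 features listed, which comprise 22036 Ensembl genes and 2735 unnamed loci. The study compared PSC-derived SG placodes with E12.5 mouse submandibular glands (SMGs) by RNA-seq, with 2 samples in each group. The placodes, labelled as mES-derived induced embryonic salivary glands, were grown from mouse embryonic stem cells (mESCs). Wells received 3000 cells each, and aggregates were kept in 2% growth factor reduced Matrigel from day 1. BMP4 was added at 2 ng/ml on day 3. From day 4 to day 6, bFGF (the FGF2 protein) was given at 25 ng/ml together with 1 μM RA. FGF10 protein was given at 200 ng/ml from day 6, and RNA was taken on day 10. The sources used here give no genotype or strain for the embryos and do not say how glands were dissected or whether they were pooled, so the share of mesenchyme around the epithelium is not known. The labels repeat the stem cell protocol on the SMG samples, and it was read here as describing the placodes. Both placode samples came from the same cell line, and aggregates without the added factors were not analysed here, so the added FGF proteins cannot be told apart from the rest of the culture.

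FGFs are signaling proteins of which most are secreted, bind heparan sulfate and activate receptor tyrosine kinases on nearby cells. In the developing SMG, mesenchymal cells make FGF10 and FGF7, and the epithelium receives them through the IIIb splice form of FGFR2, a signal that drives bud outgrowth and branching. The receptors pass the signal to the adaptor FRS2 and on to the RAS-MAPK pathway, which switches on feedback inhibitors such as the Sprouty genes and ETS factors such as Etv4 and Etv5. FGF11 to FGF14 differ from the rest because they stay inside the cell, where they bind voltage-gated sodium channels of neurons.

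Expression was given as FPKM, a fragment count corrected for the length of the transcript and for the number of mapped fragments in the library, so levels can be set against each other between genes. The FPKM values summed to 361963 to 384773 per sample, and 12636 to 12807 features per sample were at an FPKM of at least 1. Sequencing depth is unknown, so no limit of detection can be given. Across the 13193 features tested, the median absolute difference on the log2(FPKM + 1) scale between replicates was 0.083 for placodes and 0.086 for SMGs. Nothing says that the samples of a group came from separate cultures or litters, so p-values measure the spread between these samples, which may be technical. No sequencing date or batch was named, so a batch that follows the groups cannot be told apart from them.

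A gene was counted as detected in a group when neither sample was below an FPKM of 1. Of 12 markers of the salivary epithelium, SMGs had all 12 and placodes had 7 detected, and their summed FPKM was 663 and 628 in SMG samples 1 and 2, against 117 and 125 in placode samples 1 and 2. Of these 12 markers, 8 were called lower in the placodes, where 40.4% of all tested features were called lower. Among these 8, Krt5, Krt14 and Krt15 were listed at 0 in both placode samples. Sox9 (mean FPKM 42.5 in the placodes and 8.48 in the SMGs) and Krt19 (15.2 and 8.16) were called higher, and Krt8 (adjusted p = 0.322) and Krt18 (adjusted p = 0.0541) were not called. All 10 mesenchyme markers were detected in both groups, with a summed FPKM of 2149.8 and 2104 in the SMGs and of 224 and 221 in the placodes. All 10 markers of neural progenitors and neurons were detected in the placodes and 8 in the SMGs, with a summed FPKM of 1168 and 1212 in the placodes and of 128 and 116 in the SMGs. In the same order of samples, the summed FPKM in the placodes and then in the SMGs was 9.75 and 9.20 against 101 and 107 for 5 endothelial markers, 0.0258 and 0.255 against 2932 and 2945 for 7 erythroid markers, 2.45 and 2.95 against 14.0 and 12.52 for 5 leukocyte markers, and 1.00 and 0.984 against 148 and 103 for 6 skeletal muscle markers. Listed at 0 in both placode samples were 4 erythroid markers, 2 leukocyte markers and 2 muscle markers. Of 5 markers of pluripotent cells, 1 was detected in each group, and the summed FPKM was 21.9 and 21.2 against 9.56 and 10.9. The placode sum was mostly Esrrb, with a mean of 19.8, and the SMG sum mostly Klf4, with a mean of 9.97, while Pou5f1, Nanog and Zfp42 had means of 0.371, 0.191 and 0.157 in the placodes, and Pou5f1 was listed at 0 in both SMG samples. In these bulk samples, fewer cells of a type and less RNA per cell cannot be told apart, and the part of these cell types in the results that follow was not tested.

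Of the 18 secreted FGF ligands, 3 were detected in the placodes (Fgf9, Fgf15 and Fgf18) and 6 in the SMGs, while all 4 receptor genes were detected in both groups. In the placodes, 15 of the 33 members were detected, against 18 in the SMGs. Both groups shared 13 of them. Fgf14 and Fgf15 were detected in the placodes but not in the SMGs, whereas Fgf1, Fgf2, Fgf7, Fgf10 and Fgfbp1 were detected in the SMGs but not in the placodes. A further 13 members were detected in neither group. Differences were tested with limma on log2(FPKM + 1) for features with a mean FPKM of at least 1 over the 4 samples, and a feature was called different at a Benjamini-Hochberg adjusted p below 0.05 over all features tested. Of the 33 members, 18 passed this minimum and all 18 were called, 8 higher and 10 lower in the placodes. The background was high, since 76.2% of all tested features were called, 35.7% higher and 40.4% lower. This balance depended on the scaling, since 5074 features were called higher and 4965 lower when samples were rescaled to an equal sum, against 4716 and 5333 as deposited. On the log2(FPKM + 1) scale, differences called at 2-fold or more numbered 11 among the members, 5 higher and 6 lower. Of all tested features, 29.4% were called at that size, 14.1% higher and 15.2% lower. Adding 0.1 or 0.01 in place of 1 to the FPKM gave 13 such members. The groups did not overlap for any of the 18 tested members, nor for 88.4% of all tested features. The median absolute log2 fold change of the 18 members was 1.75, against 0.55 over all tested features. Of the 18, the 5 that were detected in the SMGs alone passed the minimum through their SMG values. All 5 were called at least 2-fold lower, and the 2-fold count and the median include them. Fgf14 and Fgf15, detected in the placodes alone, missed the minimum. The median and the 2-fold count are therefore no measure of the family as a whole. The 13 detected in both groups were split into 8 higher and 5 lower. An exact permutation test of a single gene in this design cannot give a two-sided p below 0.333.

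**Figure D1:**
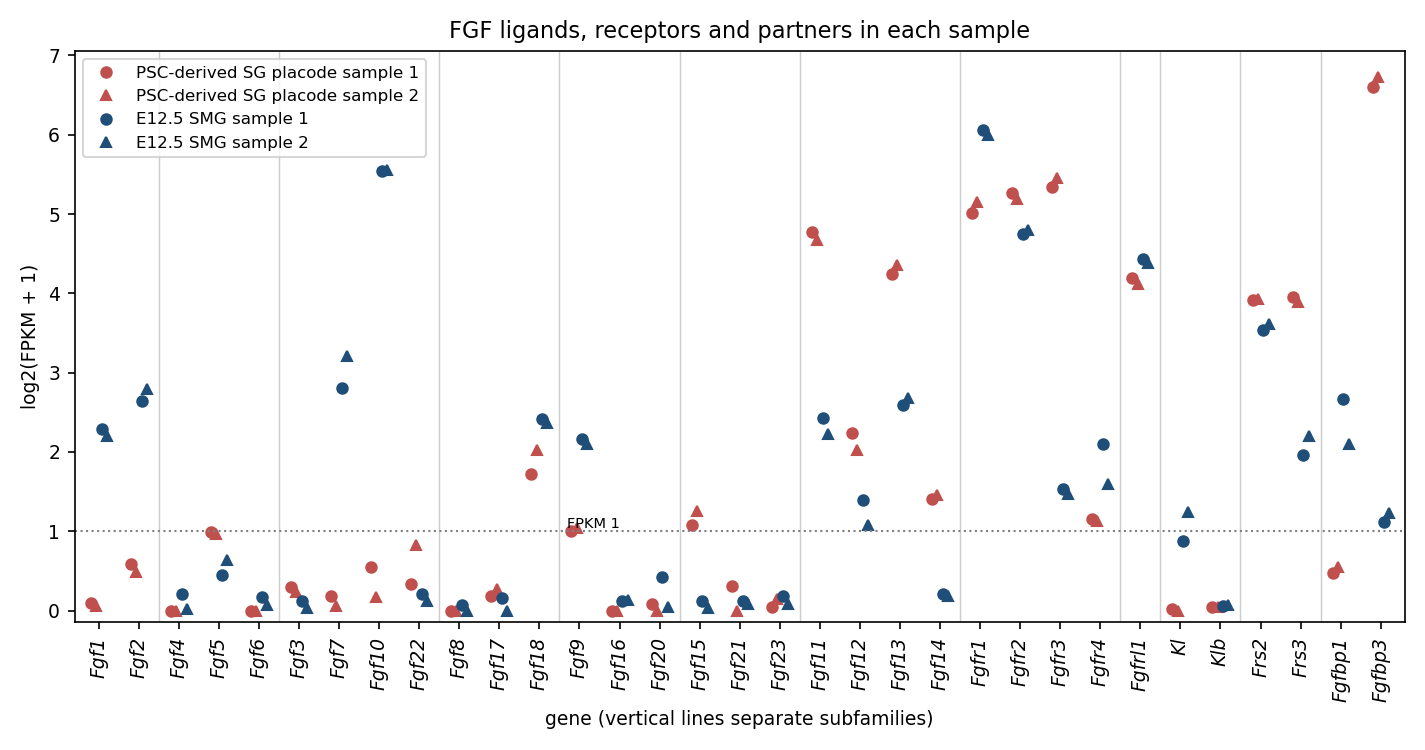
Expression of the 33 members in each sample, as log2(FPKM + 1) on the y axis, with genes on the x axis grouped by subfamily, red points for the 2 placode samples and blue points for the 2 SMG samples; the dotted line marks an FPKM of 1. Blue points stand above red ones for Fgf1, Fgf2, Fgf7, Fgf10 and Fgfr1, and red points stand above blue ones for Fgf11, Fgf13, Fgfr3, Frs3 and Fgfbp3.

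Among the 18 secreted ligands, Fgf10 showed the largest fall in the placodes. Fgf10, the ligand of the salivary mesenchyme that was added to the placodes as protein, lies on chromosome 13 of GRCm38 from 118669791 to 118792115 on the plus strand (ENSMUSG00000021732). Its FPKM was 0.465 and 0.123 in the placodes versus 45.5 and 46.1 in the SMGs. Both SMG samples lay far above both placode samples, and the mean FPKM was 156-fold lower in the placodes. That ratio rests on placode values near 0, and was 374-fold without placode sample 1 and 98.4-fold without placode sample 2. The log2 fold change (log2 FC) on the FPKM + 1 scale was -5.19 (standard error, SE, 0.14, adjusted p = 6.54e-07). Fgf7, a close relative that binds the same receptor form and is also made by mesenchyme, had an FPKM of 0.138 and 0.0451 in the placodes versus 5.98 and 8.23 in the SMGs. Its log2 fold change was -2.88 (SE 0.16, adjusted p = 1.20e-05), and the groups did not overlap. The remaining members of this subfamily, Fgf3 and Fgf22, stayed below an FPKM of 1 in every sample. Fgf3 was at 0.226 and 0.176 in the placodes versus 0.0899 and 0.0228 in the SMGs. Fgf22 was at 0.256 and 0.772 in the placodes versus 0.159 and 0.0831 in the SMGs. It shares exonic bases with Rnf126 on the opposite strand, at 48.4 and 47.6 in the placodes versus 28.9 and 28.8 in the SMGs. All 10 mesenchyme markers were called lower in the placodes as well, with a median log2 fold change of -3.36. Their part in the level of Fgf10 and Fgf7 was not tested. All tested endothelial, erythroid, leukocyte and skeletal muscle markers and 8 of 12 epithelial markers were also called lower, and all 10 neural markers higher. Of all tested features, 40.4% were called lower. An annotated transcript on the opposite strand shares exonic bases with Fgf10, and the strand setting of the counting is not given in the sources used here, so reads of that transcript cannot be told apart from those of Fgf10.

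The promoters of the member that fell most, Fgf10, and of the member that rose most, Fgfbp3, are printed here because these genes mark both ends of the range of differences. The sequences are the 250 bases before the RefSeq start site on GRCm38.p6, 5′ to 3′ on the strand of the gene, and capitals mark CG dinucleotides. The Fgf10 window is chr13:118714449-118714698 on the plus strand, inside the GENCODE gene body, and the Fgfbp3 window is chr19:36919600-36919849 on the minus strand.
Fgf10: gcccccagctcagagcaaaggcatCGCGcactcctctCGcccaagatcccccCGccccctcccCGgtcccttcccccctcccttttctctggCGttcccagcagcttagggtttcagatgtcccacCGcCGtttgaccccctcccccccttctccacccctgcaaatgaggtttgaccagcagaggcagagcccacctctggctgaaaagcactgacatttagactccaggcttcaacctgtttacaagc
Fgfbp3: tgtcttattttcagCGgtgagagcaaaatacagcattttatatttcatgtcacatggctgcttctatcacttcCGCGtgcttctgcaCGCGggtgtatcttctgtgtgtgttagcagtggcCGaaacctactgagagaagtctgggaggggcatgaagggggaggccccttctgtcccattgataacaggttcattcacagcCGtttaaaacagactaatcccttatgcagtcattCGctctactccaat
Each window held 8 CG dinucleotides, where the median over 32851 RefSeq windows of this length was 6. The letters TATAAA, searched on both strands, were present in the Fgfbp3 window and in 12.4% of all windows, and were not in the Fgf10 window. RefSeq windows were found for 26 of the 33 members. Their 33 windows had a median of 15 CG dinucleotides, which was 19 for the 15 windows of members called higher and 13 for the 8 windows of members called lower. Fgf12 and Fgf13 have 4 windows each and so account for 8 of those 15.

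Fgf1 and Fgf2, broad-acting ligands that lack a classical signal peptide, were both detected in the SMGs and below an FPKM of 1 in the placodes. The FPKM of Fgf1 was 0.0694 and 0.0370 in the placodes versus 3.88 and 3.59 in the SMGs (log2 FC -2.17, SE 0.11, adjusted p = 9.08e-06). The FPKM of Fgf2, whose protein was given to the placodes as bFGF, was 0.504 and 0.400 in the placodes versus 5.22 and 5.91 in the SMGs (log2 FC -2.18, SE 0.11, adjusted p = 9.76e-06). Samples of the groups stood clearly apart for both genes. Fgf2 shares exonic bases with 2 annotated genes, of which Nudt6, on the opposite strand, was at 2.16 and 0.664 in the placodes versus 2.00 and 1.41 in the SMGs.

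Fgf9 and Fgf18, both of which signal between epithelium and mesenchyme in developing organs, were the secreted ligands detected in both groups. Fgf9 was at an FPKM of 1.00 and 1.06 in the placodes versus 3.49 and 3.29 in the SMGs, a log2 FC of -1.11 (SE 0.10, adjusted p = 1.26e-04). Fgf18 was at 2.31 and 3.07 in the placodes versus 4.36 and 4.14 in the SMGs. Its log2 fold change was smaller, -0.51 (SE 0.13, adjusted p = 0.0106), and the call was lost without placode sample 1 (adjusted p = 0.0553), without SMG sample 1 (adjusted p = 0.0817) and without SMG sample 2 (adjusted p = 0.0621). Fgf8, Fgf17, Fgf16 and Fgf20, the other members of the same subfamilies, were at an FPKM of 0.340 or below in every sample, with Fgf8 and Fgf16 listed at 0 in both placode samples. Of the FGF4 subfamily, Fgf4, a ligand of pluripotent cells, and Fgf6, a ligand of developing muscle, had a listed value of 0 in both placode samples and stayed at 0.155 or below in the SMGs. Fgf5, known from the early epiblast and from the hair follicle, was at 0.989 and 0.958 in the placodes versus 0.361 and 0.559 in the SMGs, and fell short of the minimum for a test.

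Summed over the 18 secreted ligands, FPKM was 7.55 and 8.35 in the placodes versus 70.2 and 72.2 in the SMGs. Fgf10 alone held 64.8% and 63.8% of that sum in the SMG samples, against 6.16% and 1.47% in the placode samples. In the placodes, the largest share belonged to Fgf18, at 30.6% and 36.8%, followed by Fgf15, at 14.7% and 16.7%. Shares within a sample do not depend on how the samples were scaled.

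**Figure D2:**
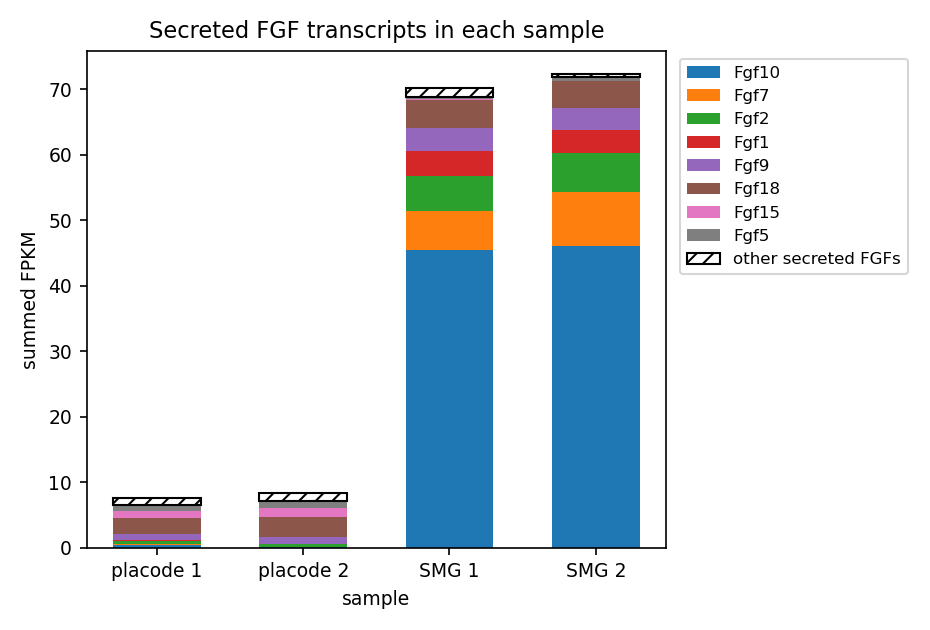
Summed FPKM of the 18 secreted FGF ligands (y axis) in each sample (x axis), with each coloured block giving the FPKM of 1 ligand and the hatched block the remaining ligands. The SMG bars reach 70.2 and 72.2, mostly from Fgf10, and the placode bars reach 7.55 and 8.35.

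The endocrine ligands and their coreceptors were scarce. Fgf15, which is expressed in the embryonic neural tube and later in the intestine, was at an FPKM of 1.11 and 1.39 in the placodes versus 0.0894 and 0.0223 in the SMGs. Its mean of 0.654 over the samples was below the minimum for the test. Without that minimum, its log2 fold change was 1.09 with an adjusted p of 1.20e-03 by limma. Fgf21 and Fgf23, which act on metabolism and on phosphate balance, were at 0.242 or below in every sample, and their groups overlapped. Kl, the coreceptor for FGF23, was at 0.0120 and 0 in the placodes versus 0.835 and 1.37 in the SMGs. Without the minimum, the log2 fold change was -1.05 for Kl (adjusted p = 4.03e-03) and 0.44 for Fgf5 (adjusted p = 0.0227). Klb, the coreceptor for FGF15 and FGF21, was below 0.05 in every sample. On chromosome 7 of GRCm38, Fgf3, Fgf4 and Fgf15 lie in that order between 144838083 and 144900953. Of these neighbours, Fgf15 was the member detected in the placodes, while Fgf4 was listed at 0 there and Fgf3 was at 0.226 or below.
In all, 15 members were below the minimum for the test, and 12 of these did not reach an FPKM of 1 in any of the 4 samples. The groups did not overlap for 11 of the 15, of which 6 were higher in the placodes, where the groups did not overlap for 56.8% of the 7271 features that were below the minimum and above 0 in at least 1 sample.

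Of the intracellular FGFs, all 3 tested members were called higher in the placodes, where 35.7% of all tested features were called higher. Fgf14 was not tested. Fgf11 was the most abundant of the 4 genes in the placodes, at an FPKM of 26.3 and 24.4 against 4.41 and 3.67 in the SMG samples. Its log2 fold change was 2.39 (SE 0.10, adjusted p = 3.15e-06). Fgf13, which also binds microtubules in growing neurons, was at 17.9 and 19.5 in the placodes versus 5.05 and 5.42 in the SMGs (log2 FC 1.66, SE 0.08, adjusted p = 6.74e-06). Fgf12 rose less, from 1.62 and 1.10 in the SMG samples to 3.73 and 3.07 in the placode samples (log2 FC 0.90, SE 0.15, adjusted p = 1.78e-03). Fgf14 was at 1.65 and 1.76 in the placodes versus 0.151 and 0.136 in the SMGs, so that its groups stood apart although its mean of 0.925 missed the minimum. Without the minimum its log2 fold change was 1.24, with an adjusted p of 4.88e-04 by limma. The sum over the 4 genes was 49.6 and 48.8 in the placodes versus 11.2 and 10.3 in the SMGs.
The known partners of these proteins were listed for comparison. Of 6 genes for neuronal sodium channels and the scaffold protein Mapk8ip2, 4 were tested. All 4 were called higher in the placodes, beside 35.7% of all tested features. Mapk8ip2 was at 23.1 and 21.7 in the placodes versus 5.27 and 4.56 in the SMGs, and the channel gene Scn3a was at 9.95 and 10.3 against 2.16 and 2.23. The log2 FC was 0.73 for Scn8a (adjusted p = 6.68e-04) and 1.02 for Scn2a (adjusted p = 1.78e-04). All 10 markers of neural progenitors and neurons were called higher in the placodes as well, with a median log2 fold change of 3.44, and their part in the level of the intracellular FGFs was not tested.

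The 4 receptor genes were present at a similar total level in both groups, but in different proportions. Their summed FPKM was 109.5 and 114 in the placodes versus 97.1 and 93.6 in the SMGs. Fgfr3 lies on chromosome 5 of GRCm38 from 33721674 to 33737068 on the plus strand (ENSMUSG00000054252) and encodes a receptor known for its role in cartilage growth and in neural progenitors. Its FPKM was 39.6 and 42.9 in the placodes versus 1.89 and 1.77 in the SMGs, a 22.6-fold higher mean in the placodes (log2 FC 3.90, SE 0.08, adjusted p = 2.98e-07). Fgfr3 made up 36.2% and 37.6% of the receptor sum in the placodes and 1.94% and 1.89% in the SMGs. Fgfr1, a receptor of mesenchymal and neural cells, was at 31.2 and 34.6 in the placodes versus 65.9 and 62.9 in the SMGs (log2 FC -0.95, SE 0.06, adjusted p = 2.86e-05). It held 67.9% and 67.3% of the receptor sum in the SMGs and 28.5% and 30.3% in the placodes. The ratio of Fgfr3 to Fgfr1, which does not depend on the scaling of the samples, was 1.27 and 1.24 in the placodes versus 0.0286 and 0.0281 in the SMGs.
Fgfr2, the receptor for FGF10 and FGF7 in the salivary epithelium, was at 37.5 and 35.5 in the placodes versus 26.0 and 26.8 in the SMGs. It was 1.38-fold higher in the placodes (log2 FC 0.45, SE 0.05, adjusted p = 4.02e-04), where 8 of 12 epithelial markers were called lower and 2, Sox9 and Krt19, higher. Fgfr4 was low in both groups, at 1.22 and 1.18 in the placodes versus 3.27 and 2.02 in the SMGs. Its log2 fold change of -0.71 (SE 0.18, adjusted p = 0.0109) was called with all samples and not without placode sample 1 (adjusted p = 0.0998) or without placode sample 2 (adjusted p = 0.107). Fgfrl1, a receptor without a kinase domain, was at 17.3 and 16.4 in the placodes versus 20.6 and 19.9 in the SMGs. Its log2 fold change of -0.25 (SE 0.06, adjusted p = 9.78e-03) was not called without placode sample 2 (adjusted p = 0.0643) or without SMG sample 1 (adjusted p = 0.0603). In the placodes the receptors ranked Fgfr3, Fgfr2, Fgfr1 and Fgfr4, and samples of neighbouring genes in this order did not overlap. In the SMGs the order was Fgfr1, Fgfr2, Fgfr4 and Fgfr3, again without overlap. Fgfr1, Fgfr2 and Fgfr3 each share exonic bases with another annotated gene. For Fgfr2 this was Ctbp2 on the same strand, at 47.0 and 54.7 in the placodes versus 33.9 and 31.9 in the SMGs. Reads of Ctbp2 in the shared bases cannot be told apart from those of Fgfr2.

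**Figure D3:**
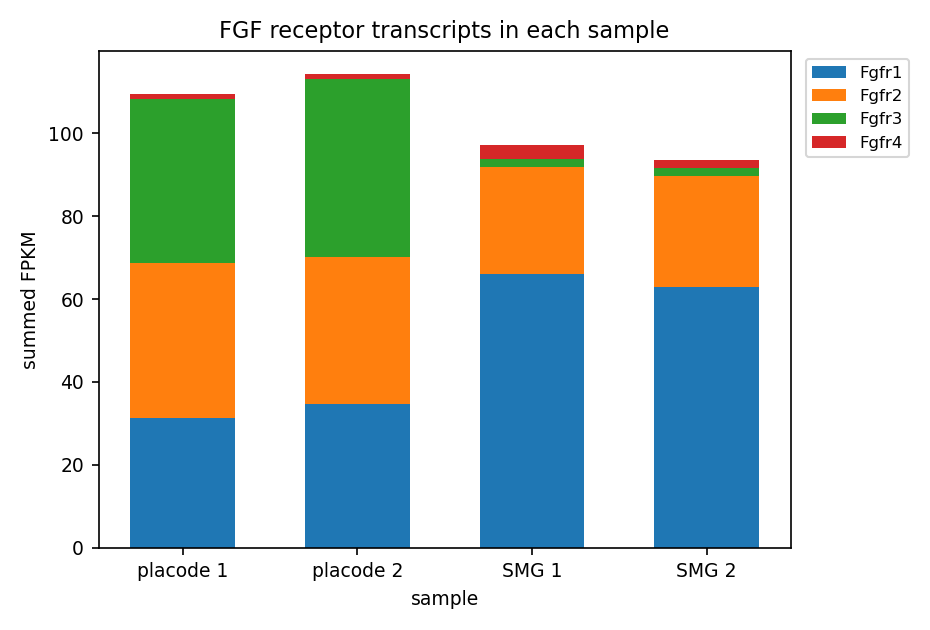
FPKM of the 4 FGF receptor genes (y axis, stacked) in each sample (x axis). The bars are of similar height, between 93.6 and 114, but Fgfr3 makes up 36.2% and 37.6% of the placode bars and Fgfr1 67.9% and 67.3% of the SMG bars.

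FPKM is summed over the transcripts of a gene, so the IIIb form of Fgfr2, which binds FGF10 and FGF7, cannot be told apart from the IIIc form, which binds other FGFs. The factors that steer this choice of exons were therefore examined. Of 7 splicing factors listed, 6 were called, 3 higher and 3 lower in the placodes, where 76.2% of all tested features were called. Esrp1, the epithelial factor that favours the IIIb exon, was at an FPKM of 0.418 and 0.411 in the placodes versus 16.6 and 15.9 in the SMGs (log2 FC -3.61, SE 0.09, adjusted p = 6.09e-07). Esrp2, which acts alongside it, was at 0.103 and 0.266 against 4.57 and 4.95 (log2 fold change -2.28, adjusted p = 1.06e-05). The neuronal factors Rbfox3 and Rbfox1 were higher in the placodes, by a log2 FC of 4.28 for Rbfox3 (adjusted p = 4.36e-07) and of 2.98 for Rbfox1 (adjusted p = 7.91e-07). Ptbp1 was lower (log2 FC -1.67, adjusted p = 1.60e-06) and Ptbp2 higher (log2 FC 1.46, adjusted p = 3.35e-06). Only the action of Esrp1 and Esrp2 on the exon is described here, so the list gives no net direction for the choice of exons. Rbfox2 had a mean FPKM of 80.4 in the placodes and 75.7 in the SMGs and was not called (adjusted p = 0.147), but was called higher when samples were rescaled to an equal sum (adjusted p = 0.0286) or by median ratios (adjusted p = 0.0316). Esrp1 and Esrp2 fell as did 8 of the 12 markers of the salivary epithelium, but not Sox9 and Krt19, which were called higher, or Krt8 and Krt18, which were not called. Rbfox1 and Rbfox3 rose as did all 10 neural markers, and the part of these cell types was not tested.

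Both receptor adaptors were higher in the placodes, to a different extent. Frs3 was at an FPKM of 14.5 and 13.8 in the placodes versus 2.88 and 3.61 in the SMGs, a log2 FC of 1.84 (SE 0.11, adjusted p = 1.49e-05). Frs2, the broadly expressed adaptor, was at 14.0 and 14.2 in the placodes versus 10.6 and 11.3 in the SMGs, a log2 FC of 0.34 (SE 0.07, adjusted p = 3.82e-03). The ratio of Frs3 to Frs2 was 1.04 and 0.972 in the placodes versus 0.273 and 0.321 in the SMGs. Frs3 shares exonic bases with Frs3os on the opposite strand and Tomm6os on the same strand, so reads of these cannot be told apart from those of Frs3.
The FGF-binding proteins, which release FGFs stored on heparan sulfate, moved in opposite directions. Fgfbp3 had the largest rise of all members and the highest FPKM of any member in any sample. It lies on chromosome 19 of GRCm38 from 36917550 to 36919615 on the minus strand (ENSMUSG00000047632). Its FPKM was 96.0 and 104.6 in the placodes versus 1.17 and 1.35 in the SMGs, a 79.6-fold higher mean in the placodes. The log2 fold change was 5.49 (SE 0.08, adjusted p = 1.36e-07). Fgfbp1, a protein of epithelial cells such as keratinocytes, was at 0.393 and 0.462 in the placodes versus 5.35 and 3.28 in the SMGs (log2 FC -1.87, SE 0.20, adjusted p = 2.05e-04). The SMG samples differed from each other more for Fgfbp1 than for most members, yet both lay above the placode samples.

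**Figure D4:**
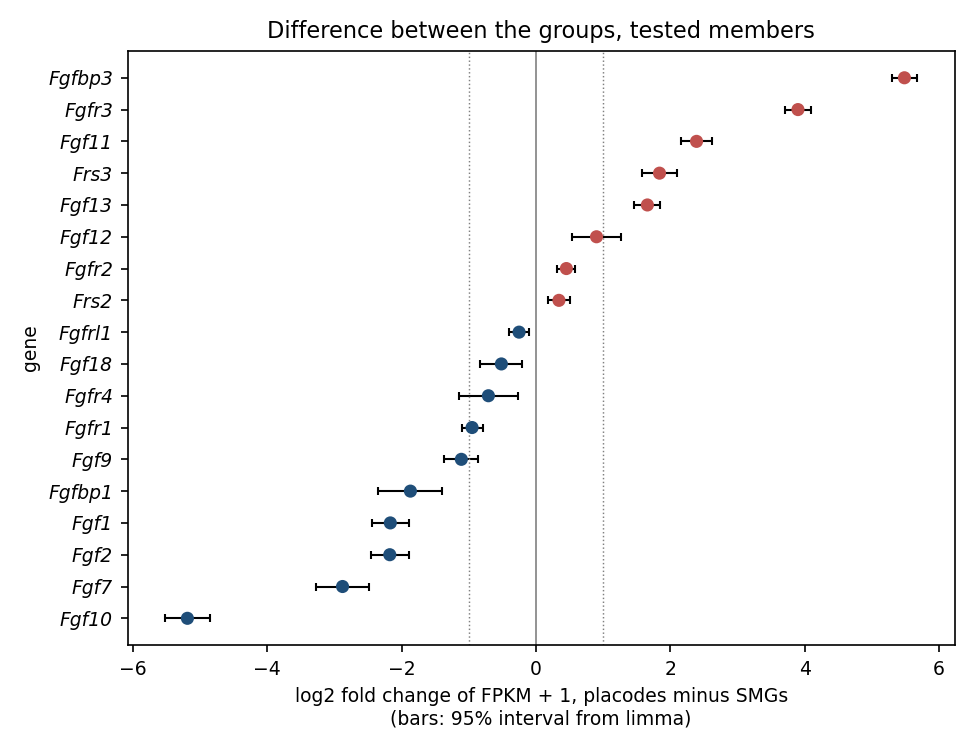
Log2 fold change of FPKM + 1 (x axis, placodes minus SMGs) for the 18 tested members (y axis), with 95% intervals from limma; red points are higher and blue points lower in the placodes, and dotted lines mark 2-fold. Fgfbp3 at 5.49 and Fgf10 at -5.19 lie at the ends, and Fgfrl1 at -0.25 lies nearest to 0.

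Genes that act downstream of the receptors were compared in the same fit. Of 12 targets and feedback genes of FGF signaling, 11 were listed in the table and tested. In the placodes, 9 were called lower and 1 higher, where 76.2% of all tested features were called, 40.4% lower and 35.7% higher. The list had a median log2 FC of -1.25, where the median of all tested features was -0.05. Etv4, an ETS factor induced by FGF signaling, was at an FPKM of 2.04 and 1.88 in the placodes versus 25.7 and 25.5 in the SMGs (log2 FC -3.17, SE 0.08, adjusted p = 5.42e-07). Its relative Etv5 was at 2.89 and 2.60 against 28.6 and 28.8 (log2 fold change -2.99, adjusted p = 6.09e-07). Dusp6, a phosphatase that dampens the pathway, was at 5.46 and 5.96 in the placodes versus 48.3 and 50.2 in the SMGs. The Sprouty genes Spry1, Spry2 and Spry4 were all lower, with log2 fold changes of -2.02, -1.25 and -2.79. Spred1 and Spred2 were lower by smaller amounts, at -0.43 and -0.79, and Etv1 was not called, at 0.25 (adjusted p = 0.112). Spred3, the gene called higher, was at 5.54 and 7.18 in the placodes versus 4.36 and 3.90 in the SMGs (log2 fold change 0.51, adjusted p = 0.0118), and Il17rd was lower by a log2 FC of -0.31 (adjusted p = 0.01002). Leaving out 1 library lost the call of Spred3 without placode sample 2 (adjusted p = 0.0777), SMG sample 1 (0.0613) or SMG sample 2 (0.106) and that of Il17rd without placode sample 1 (0.0501), placode sample 2 (0.0649) or SMG sample 2 (0.0635).

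**Figure D5:**
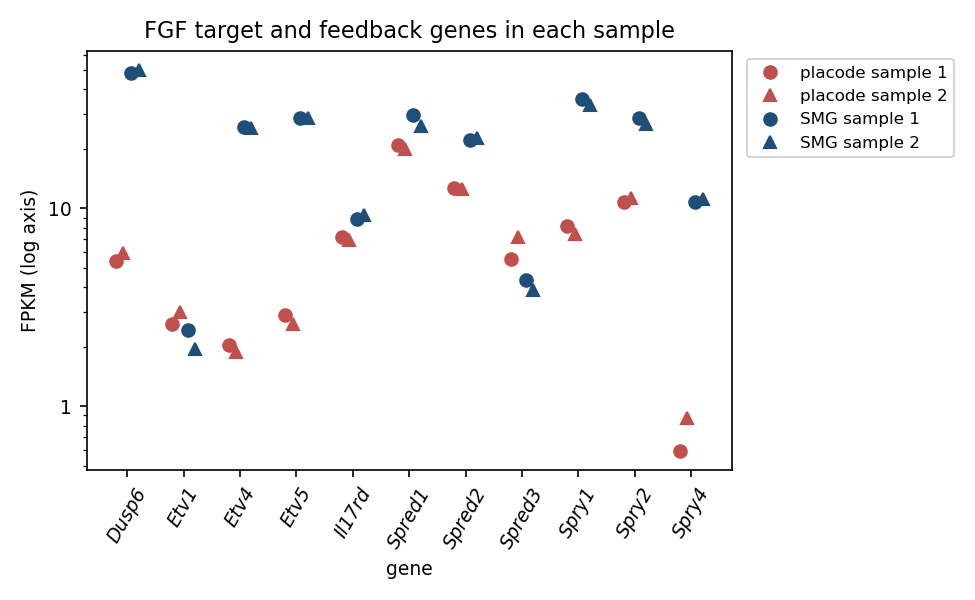
FPKM (y axis, log scale) of the 11 FGF target and feedback genes (x axis) in each sample, with red points for placode samples and blue points for SMG samples. Blue points stand far above red ones for Dusp6, Etv4 and Etv5, and the points lie close together for Etv1, Il17rd and Spred1.

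Of 17 signal transduction genes tested, 8 were called higher and 4 lower in the placodes, beside 35.7% and 40.4% of all tested features. After median-ratio scaling 13 of the 17 were called, and after quantile normalization 14. The median log2 fold change of the 17 was 0.09 and their median absolute log2 fold change 0.51, close to the 0.55 of all tested features. Grb2, the adaptor that links FRS2 to SOS, was at an FPKM of 67.7 and 70.3 in the placodes versus 31.2 and 31.6 in the SMGs, and Braf was at 11.0 and 10.6 against 5.11 and 5.13. Shc1 was lower, at 10.8 and 9.71 against 52.4 and 55.2, as was Gab1, at 12.9 and 11.5 against 27.8 and 26.4. The remaining called genes differed by less than 2-fold.
Membrane partners of the receptors were split. Of 13 tested, 6 were called higher and 6 lower in the placodes, where 35.7% of all tested features were higher and 40.4% lower. The adhesion molecules L1cam and Cdh2 had the highest log2 fold changes, 3.21 (adjusted p = 4.39e-07) and 2.19 (adjusted p = 7.64e-07). The heparan sulfate proteoglycan Gpc3 and the FGFR-binding protein Flrt2 had the lowest, -2.85 (adjusted p = 1.94e-07) and -2.51 (adjusted p = 5.66e-07). Sdc2 was not called (adjusted p = 0.0657) but was called higher without SMG sample 1 (adjusted p = 0.0297) and under 3 other scalings and the replicate block (adjusted p = 0.0256 to 0.0414). Gpc1 was called (adjusted p = 0.0113) but not without placode sample 1 (0.116) or placode sample 2 (0.0914).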

How the data were processed

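Total RNA of 4 samples, 2 in each of 2 groups, was sequenced as paired-end Illumina reads. The authors mapped reads to the mouse genome with HISAT2. The submitters' processing notes name the human build GRCh38 beside the mouse build GRCm38. The authors deposited the expression of each gene as FPKM in 1 table. The HISAT2 version, annotation, counting program and strand setting are not given in the sources used here. Only FPKM values were used here, without read counts, so depth is unknown.

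Groups were taken from the sample labels. Values were transformed as log2(FPKM + 1), and features with a mean FPKM of at least 1 over the 4 samples were fitted with limma 3.58.1 in R 4.3.3 (eBayes with trend, no covariate). P-values are two-sided, with Benjamini-Hochberg adjustment over 13193 features and a threshold of 0.05. Fold changes on this scale understate the change of low genes. Coordinates and shared exons came from GENCODE M21 (GRCm38), where all 33 members had the same symbol, and promoters from RefSeq (GRCm38.p6). Exonic bases were shared with another annotated gene by 10 members: Fgf2, Fgf10, Fgf14, Fgf15, Fgf20, Fgf22, Fgfr1, Fgfr2, Fgfr3 and Frs3. The fit was tested on simulated data.

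All members are named. From each pathway list, the called genes with the highest and lowest log2 fold changes (up to 2 each) are named, with Esrp1 and Esrp2. Outside this rule, Rbfox2, Ptbp1, Ptbp2, Sdc2, Gpc1, the epithelial and pluripotent markers given with means and the remaining targets and feedback genes were chosen once their values had been seen. The members and gene lists were chosen with earlier results of these data known. Spry3 was not analysed here. Alternatives changed the pseudocount, scaling, minimum, variance model and samples used.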

Additional observations from a re-analysis of the deposited data

How the results depend on the processing

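No tested member changed direction under any of the 16 alternatives, which covered the pseudocount, 4 other scalings, the minimum of mean FPKM, the replicate block, the variance model, the assembled loci and each sample left out. A minimum mean FPKM of 5 leaves 10 members in the test, and all 10 were called, 3 of them lower and 6 at least 2-fold apart. At that minimum, 7460 of all 9679 tested features were called. The same minimum leaves 2 of the partners of intracellular FGFs, both called. Without a minimum, 22 of 33 members were called, 11 in each direction, beside 11894 of all 20464 tested features. At a detection level of 5 FPKM, 9 members were detected in the placodes and 8 in the SMGs. Nothing says that samples with the same replicate number are paired. Their deviations from the group means had r = -0.035 over 13193 features, which cannot show whether they were processed together. With the replicate number as a block, 18 members were called, 8 higher and 10 lower, and the block lost no member's call. It moved the membrane partners from 12 to 13 called. Leaving out each sample in turn gave 16 to 17 called members, 8 to 9 lower and 11 to 13 at least 2-fold apart, with the lost calls being those of Fgf18, Fgfr4 and Fgfrl1. With 1 sample left in a group, that sample is assumed to vary like the other group. The pseudocount set the size of the changes in low genes, and at 0.01 the log2 fold changes were -7.51 for Fgf10, -6.28 for Fgf7, -5.94 for Fgf1 and -3.60 for Fgf2. Over all features, 4716 were called higher and 5333 lower, which became 5074 and 4965 after rescaling to an equal sum and 5088 and 4997 after median-ratio scaling. Values near 0 FPKM are limited by a depth that is not known.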
